A study of Mus musculus with 8 samples.

Results

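Dense stretches of open chromatin, places where 6 or more accessible sites lie side by side on a mouse chromosome, were compared between growing and paused embryonic stem cells. On chromosomes 1 to 19, peaks whose centres lay at most 3 kb apart were joined into chains, and chains of 6 or more peaks were kept. This gave 1112 peaks in 166 stretches, out of 134407 peaks in the whole table and 131317 on the autosomes (0.847% of the latter). The rule used positions and no measured values. The cells were wild-type mouse embryonic stem cells of the E14 line, an established line, grown on gelatin in medium with serum and LIF. The 4 control libraries came from cultures without the drug, and the 4 paused libraries from cultures given INK128 at 200 nM for 24 h. INK128 blocks the kinase mTOR. ATAC-seq libraries were each made from 50000 live cells; the assay uses the enzyme Tn5 to cut and tag accessible DNA. All libraries come from 1 line, and nothing in the labels says whether the 4 of a group were grown as separate cultures, so that the p-values measure the spread between these libraries, which may be technical.

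Open sites mark promoters, enhancers and other places where proteins have displaced nucleosomes. Runs of such sites often belong to the regulatory region of 1 gene, and in stem cells large clusters of enhancers are known around genes of cell identity. Other runs form at arrays of small, heavily transcribed genes, such as histone genes and tRNA genes, where each copy has its own promoter. mTOR, the target of INK128, is known to drive cell growth, including transcription of tRNA genes by RNA polymerase III.

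The promoter windows of 5 genes show the sequence before gene starts in a few such stretches. Each is the 250 bases before the gene's start in RefSeq (GRCm38.p6), written 5′ to 3′ on the strand of the gene, and capitals mark the bases that lie inside a peak of the stretch. Tfcp2l1 was chosen as the pluripotency gene with a stretch at its start, Ubald2 and the histone genes H3c8 and H2bc9 because their stretches are among the 5 strongest, and Bag5, chosen after its values were seen, because the peak at its start was called.
Tfcp2l1: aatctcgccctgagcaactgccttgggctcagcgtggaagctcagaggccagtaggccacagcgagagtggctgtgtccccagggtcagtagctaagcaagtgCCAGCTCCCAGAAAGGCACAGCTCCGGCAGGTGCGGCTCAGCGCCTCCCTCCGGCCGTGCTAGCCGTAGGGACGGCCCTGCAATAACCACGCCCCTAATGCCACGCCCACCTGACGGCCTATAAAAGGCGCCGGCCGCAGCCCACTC
Ubald2: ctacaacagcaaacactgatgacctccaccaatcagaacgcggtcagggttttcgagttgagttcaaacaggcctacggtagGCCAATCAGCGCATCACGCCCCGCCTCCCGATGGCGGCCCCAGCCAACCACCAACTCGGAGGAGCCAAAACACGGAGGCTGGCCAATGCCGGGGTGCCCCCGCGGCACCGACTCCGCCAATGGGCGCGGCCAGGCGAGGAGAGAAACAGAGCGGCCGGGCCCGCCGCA
H3c8: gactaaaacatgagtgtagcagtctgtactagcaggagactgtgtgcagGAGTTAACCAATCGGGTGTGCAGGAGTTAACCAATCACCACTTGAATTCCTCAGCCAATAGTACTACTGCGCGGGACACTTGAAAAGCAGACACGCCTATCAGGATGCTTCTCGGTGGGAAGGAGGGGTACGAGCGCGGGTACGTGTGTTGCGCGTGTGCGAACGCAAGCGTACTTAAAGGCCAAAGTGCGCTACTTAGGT
H2bc9: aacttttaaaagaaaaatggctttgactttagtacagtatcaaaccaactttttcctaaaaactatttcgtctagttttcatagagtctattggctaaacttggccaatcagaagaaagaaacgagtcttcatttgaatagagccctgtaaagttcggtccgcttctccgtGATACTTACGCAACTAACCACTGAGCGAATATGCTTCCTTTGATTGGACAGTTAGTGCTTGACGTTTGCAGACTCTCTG
Bag5: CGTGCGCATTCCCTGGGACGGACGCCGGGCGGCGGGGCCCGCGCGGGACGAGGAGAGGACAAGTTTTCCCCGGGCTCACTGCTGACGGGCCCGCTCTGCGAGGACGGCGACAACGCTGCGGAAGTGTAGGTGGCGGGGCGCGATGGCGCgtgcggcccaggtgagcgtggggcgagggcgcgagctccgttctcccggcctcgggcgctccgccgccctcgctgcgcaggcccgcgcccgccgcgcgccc
The Tfcp2l1 window lies at chr1:118627695-118627944 on the plus strand, the Ubald2 window at chr11:116433844-116434093 on the plus strand, the H3c8 window at chr13:23535168-23535417 on the plus strand, the H2bc9 window at chr13:23543445-23543694 on the minus strand and the Bag5 window at chr12:111712954-111713203 on the minus strand. Their GC content ran from 38.4% in H2bc9 through 52% in H3c8 and 65.2% in both Tfcp2l1 and Ubald2 to 78% in Bag5, which held 43 CG pairs. The TATA box letters TATAAA begin at base 223 of the Tfcp2l1 window, counted from its first base. The CCAAT box letters, or their reverse complement ATTGG, were found 4 times in the Ubald2 window and 3 times each in the H3c8 and H2bc9 windows. Both of these motifs were added to the search after the sequences were seen.

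Of the RefSeq start windows, 44 windows of 43 genes reached into a dense peak, and 11338 windows reached into any peak. Searched on both strands, the CCAAT letters were in 29.5% of the 44 windows, 38.6% of the windows in any peak and 33.8% of all 32851 windows. TATAAA was in 6.82%, 5.17% and 12.4%. The E-box CACGTG, bound by Myc among others, was in 6.82%, 8.71% and 6.02%, and the AP-1 element TGANTCA in 4.55%, 4.43% and 6.75%. The octamer ATGCAAAT, bound by Oct4, was in 1 of the 44 windows (2.27%, against 1.58% and 1.60%). The element TCAAGGTCA of Esrrb and Nr5a2, the Sox letters CATTGTT and the Foxh1 letters AATCCACA were in none of the 44. With so few windows, a share of the 44 moves by more than 2 percentage points with each window.

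The stretches were short. They spanned 5637 to 23916 bp with a median of 11127.5 bp and covered 1.92 Mb in all, and the median distance between neighbouring centres was 2033.5 bp. Of the 166, 95 had 6 peaks, 43 had 7, 17 had 8, 8 had 9, and 1 each had 10, 11 and 12. Just outside the rule lay 369 chains of 5 peaks. Chromosome 7 held the most, 21 stretches with 1.68% of its peaks, followed by chromosome 1 with 20 (1.44%) and chromosome 11 with 18 (1.28%), whereas chromosome 9 held 2 (0.186% of its peaks).

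Dense peaks were weaker and less often near gene starts than peaks that stood alone, as were peaks of smaller chains. Their median value was 27.3, against 33.5 for the 83704 single peaks and 32.3 for all peaks. Values are reads in a peak divided by 1 factor for each library, as the authors deposited them, and are called normalised read counts here. Only 5.76% of dense peaks (64) lay within 1 kb of a RefSeq gene start, against 11.7% of single peaks, and 60.3% lay within the span of a protein-coding gene, against 51.3%. Peaks in chains of 4 and 5 were close to the dense peaks in these traits. Their median values were 28.7 and 28.6, with 6.01% and 6.40% near a start and 57.9% and 56.7% within a gene. Of the stretches, 132 overlapped a protein-coding gene, 64 lay wholly inside 1 gene, 34 were outside genes and 49 had a peak near a start. Depth was uneven: control libraries had 4434037 (replicate 3) to 21161767 (replicate 1) reads in peaks, the paused libraries 5216700 to 7238935, and the median dense peak held 16 to 84 reads. Peaks nearest to the stem cell genes Pou5f1, Sox2, Nanog, Esrrb and Zfp42 within 50 kb numbered 4, 22, 12, 43 and 21, and those nearest to Gata6, Sox17, Cdx2, T and Pax6, genes of other lineages, 9, 6, 5, 6 and 3. None of these 10 genes had a dense stretch.

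In paused cells the dense stretches took a smaller share of the reads. They held 0.700%, 0.688%, 0.684% and 0.685% of all reads in peaks in control replicates 1 to 4, and 0.654%, 0.666%, 0.642% and 0.662% in paused replicates 1 to 4. All 4 paused libraries were below all 4 controls, and the mean went from 0.689% ± 0.00741 (SD, n = 4) to 0.656% ± 0.0107 (SD, n = 4). The Wilson 95% intervals, which cover counting error only, ran from 0.676% to 0.692% in the shallowest library, control replicate 3, and from 0.659% to 0.673% in the highest paused library. This share does not depend on how the libraries were scaled. It was also lower without the peaks at tRNA genes, at 0.670% ± 0.00813 in controls and 0.643% ± 0.00992 in paused cells (SD, n = 4 each). The share of single peaks moved the other way, from 65.8% ± 0.262 to 66.4% ± 0.293 (SD, n = 4 each), and chains of 2, 3, 4 and 5 peaks each held less, from 20.2% to 19.96%, 7.36% to 7.17%, 3.03% to 2.94% and 1.19% to 1.13%. Smaller groups of neighbouring peaks thus moved in the same direction.

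On the deposited scale the mean value of a dense peak was nonetheless higher in paused cells, at 49.3 ± 1.32 against 46.4 ± 0.501 (SD, n = 4 each), while the mean over all peaks went from 55.7 ± 1.03 to 62.1 ± 1.92 (SD, n = 4 each).

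**Figure D1:**
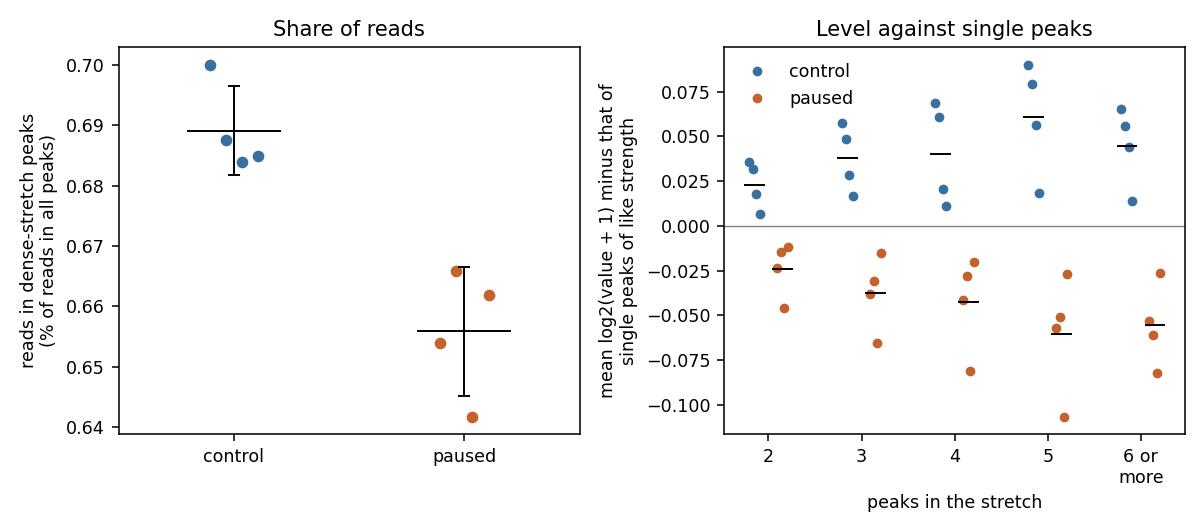
The left panel plots, for each library, the reads in dense-stretch peaks as a percentage of reads in all peaks, with the mean and SD of each group; the axis does not start at 0, and the 4 paused libraries, at 0.642% to 0.666%, lie below the 4 controls, at 0.684% to 0.700%. The right panel plots the mean log2(value + 1) of peaks in chains of 2, 3, 4, 5 and 6 or more, less that of single peaks of like strength, with lines at the group means; the distance between the group means is 0.10 for the dense stretches, and the values are centred near 0 by the matching.

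Set against single peaks of like strength, dense peaks were lower in paused than in control libraries. The tested peaks were sorted into 20 classes of equal size by their mean over all 8 libraries, and in each library the mean log2(value + 1) of dense peaks was compared with that of single peaks class by class. Dense peaks were above single peaks by 0.07, 0.06, 0.04 and 0.01 in control replicates 1 to 4. The differences were -0.05, -0.06, -0.08 and -0.03 in paused replicates 1 to 4. Because the classes use all 8 libraries, these values are centred near 0, and only the distance between the groups carries information. The groups did not overlap, and the difference between their means was -0.10 on the log2 scale, against an SD between libraries of 0.0228. Chains of 2, 3, 4 and 5 peaks gave -0.05, -0.08, -0.08 and -0.12. The value for the dense stretches was -0.0863 without the stretches that hold tRNA genes and -0.105 without peaks within 1 kb of a start, both settings chosen after seeing the data. It shrank to -0.0602 among peaks whose mean value reached 50 and to -0.0283 where centres had to be within 2 kb, a setting that left 58 tested peaks.

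Peak by peak, the dense stretches held both rises and falls. Of the 1112, 1065 passed the filter of a mean value of at least 10, and calls were made with limma-trend on log2(value + 1) at an adjusted p under 0.05 over all 127402 peaks tested. Of all peaks tested, 13.9% were called. Among dense peaks 79 were higher in paused cells (7.42%, against 11.0% of all peaks tested) and 57 were lower (5.35%, against 2.91%). Among single peaks, weighted to the strengths of the dense peaks, 10.3% were higher and 2.79% lower. In chains of 5 peaks the shares were close to the dense ones, at 6.66% higher and 4.33% lower. Where the mean value had to reach 50, 64 of 299 dense peaks were higher, against 22.4% of all peaks. There 12 were lower, against 1.66% of all peaks. The median log2 change was 0.01 in dense peaks, 0.10 in all peaks and 0.12 in single peaks, with 0.07, 0.04, 0.02 and 0.01 in chains of 2, 3, 4 and 5. The 4 values of each group did not overlap at 173 dense peaks (16.2%, against 17.4% of all). The split of calls moved with scaling: TMM, which set the median of all peaks from 0.10 to 0.00, gave 49 higher and 79 lower dense peaks, where all peaks gave 6.00% and 4.17%.

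**Figure D2:**
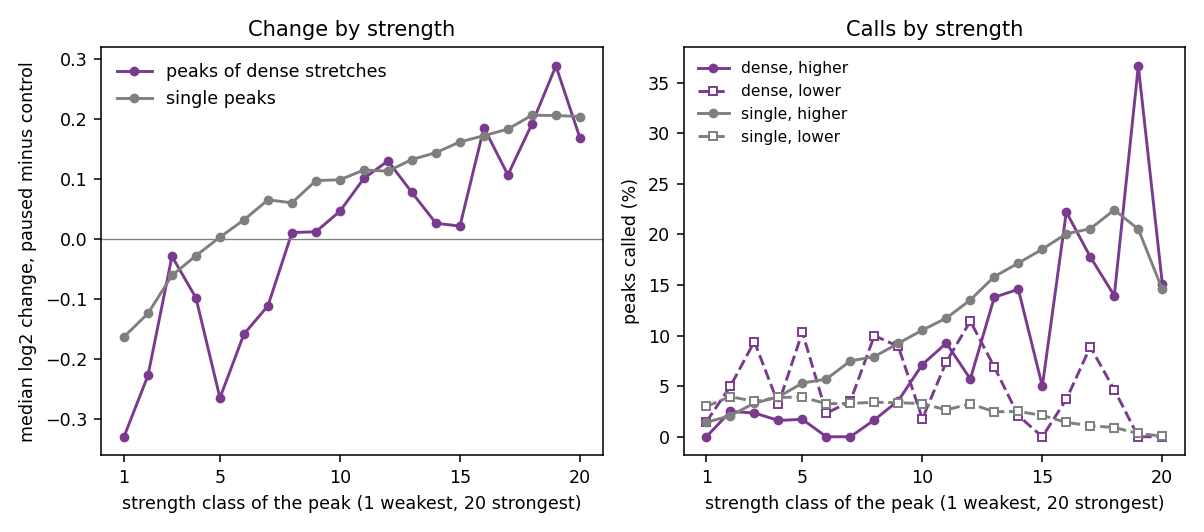
Peaks of dense stretches (purple) and single peaks (grey) are plotted over 20 classes of peak strength, from the weakest to the strongest. The left panel gives the median log2 change, paused minus control, where the dense peaks lie below the single peaks in 16 of the 20 classes; the right panel gives the percentage called higher (solid) and lower (dashed), and the dense share called higher is below the single share in 16 classes.

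Read as whole units, more stretches were called higher than lower on the deposited scale, and fewer under each other scaling. The values of all peaks of a chain were summed and fitted with limma-trend over the 101425 chains of any size, single peaks included. Of the 166 stretches, 21 were called higher in paused cells (12.7%, against 12.9% of all chains) and 5 lower (3.01%, against 2.81%), where 15.7% of all chains were called either way. The groups did not overlap at 44 stretches (26.5%, against 18.3%). Most of all chains are single peaks, whereas a sum over many peaks is less noisy: the median SE was 0.102 for a stretch and 0.227 for a dense peak. In chains of 2, 3, 4 and 5 peaks the groups did not overlap at 2955 of 14534, 800 of 3660, 251 of 1144 and 77 of 369. No comparison with chains of like sum was made. Changes ran from -0.69 to 0.60 with a median of 0.07, against 0.12 over all chains, and 105 of 166 were above 0. Both counts depended on scaling, and so did their place beside all chains. After TMM 6 were higher (3.61%, against 5.87% of all chains) and 17 lower (10.2%, against 4.67%). Scaling to total reads gave 4 higher (2.41%, against 5.00%) and 23 lower (13.9%, against 5.62%). A loess correction gave 3 higher (1.81%, against 5.75%) and 33 lower (19.9%, against 4.35%). Loess was fitted to chain sums, so a stretch was corrected with chains of like sum, including single peaks stronger than its own peaks. The median of the stretches was -0.116 after loess and -0.0515 after TMM, while that of dense peaks was -0.0650 and -0.0881. How many of the 33 falls come from the summing was not tested. Under TMM, scaling to total, loess and the 2 count tools, 3 of the 21 higher calls held in every case and 15 in none. All 5 lower calls held in every case, and no called stretch changed sign. Each of these settings lowered the median change of the stretches, from 0.07 to between -0.12 and -0.05. Falls were thus favoured over rises, and the contrast does not show which calls are firmer. With any 1 library left out, 10 of the 21 higher and 3 of the 5 lower calls held in every case. Without paused replicate 4 there were 10 higher calls (6.02%, against 8.32% of all chains). Without control replicate 3 there were 3 lower calls (1.81%, against 1.80%).

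**Figure D3:**
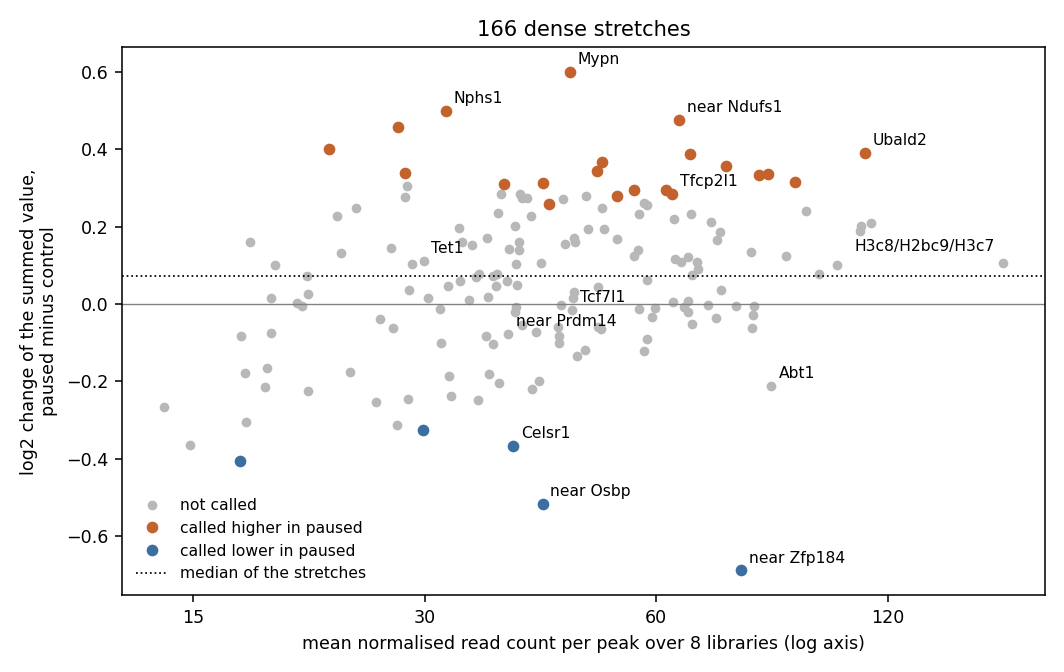
Each of the 166 dense stretches is a point, at its mean normalised read count per peak (log axis) and the log2 change of its summed value, paused minus control. The 21 called higher are orange and the 5 called lower blue, the dotted line is the median change of 0.07, and the change runs from -0.69 near Zfp184 to 0.60 in Mypn.

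The largest rise was in Mypn, the gene of myopalladin, a protein of the muscle sarcomere. The stretch lies inside the gene at chr10:63174158-63184700 (mm10) and has 7 peaks. Its mean value per peak was 39.8, 34.6, 38.2 and 34.8 in control replicates 1 to 4 and 53.9, 59.0, 56.3 and 54.2 in paused replicates 1 to 4. Every paused library was above every control. The log2 change was 0.60 (SE 0.10, limma-trend adjusted p = 4.28e-05). All 7 peaks had a change above 0, and 3 of them were called. The strongest, at 63182503, went from 114 ± 11.6 to 183 ± 15.6 (SD, n = 4 each), and a weak one at 63180534 from 7.44 ± 3.11 to 19.8 ± 3.18 (SD, n = 4 each).

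Nphs1, which encodes nephrin of the kidney filter, had a stretch of 9 peaks at chr7:30476302-30490546. Mean values per peak were 28.4, 25.3, 28.0 and 24.2 in the controls and 35.9, 36.8, 36.9 and 40.1 in the paused libraries, with no overlap. The log2 change was 0.50 (SE 0.10, limma-trend adjusted p = 0.000593). All 9 peaks had a change above 0, although only 2 were called; the one at 30486527 had the largest change, 1.55, from 7.22 ± 0.353 to 23.2 ± 1.84 (SD, n = 4 each).

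The stretch 4713 bp from Ndufs1, which encodes a subunit of mitochondrial complex I, moved through 1 peak. It lies at chr1:63129048-63138879, and its mean values per peak were 53.4, 53.1, 47.7 and 61.0 in the controls and 71.1, 75.2, 72.7 and 79.9 in the paused libraries. The log2 change was 0.48 (SE 0.10, limma-trend adjusted p = 0.000685). Its last peak rose from 173 ± 19.8 to 291 ± 18.5 (SD, n = 4 each) and was the 1 called peak. The other 4 tested peaks had changes from -0.14 to 0.25, and the share of the strongest peak in the stretch went from 53.5% to 64.9%. So a called stretch could have every tested peak above 0, as at Nphs1, or move through 1 peak, as here.

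Next in size were a stretch at chr12:20801495-20812209, 130804 bp from the nearest protein-coding gene end, with 0.46, and a stretch inside Mpzl1, a cell surface glycoprotein gene, with 0.40 (limma-trend adjusted p = 0.00344 and 0.0133). The call on chromosome 12 held after TMM and with edgeR but not after scaling to total, after loess or with DESeq2 (changes 0.30, 0.27 and 0.33, adjusted p = 0.0603, 0.0944 and 0.101). In Mpzl1 the control values were close together, at 19.1, 19.3, 19.6 and 19.5, and the paused values were 24.2, 26.4, 23.3 and 29.0. Only 2 of its 7 peaks were called, with changes of 1.40 and 0.79, and 3 had changes below 0. The Mpzl1 call did not hold under any other scaling, nor without paused replicate 4 (change 0.34, limma-trend adjusted p = 0.0721). The remaining called rises were smaller, from 0.26 to 0.39. They included Ubald2, Dapk1 (a death-associated kinase), Ubr3 (a ubiquitin ligase), Coil (coilin, of Cajal bodies), Mks1 (of the base of the cilium), Adcy9 (an adenylyl cyclase) and Cfc1 (a co-receptor of Nodal, in a stretch shared with Prss40), which were picked from these after their values were seen. The change was 0.37 in Dapk1, 0.36 in Ubr3, 0.33 in Coil, 0.31 in Adcy9, 0.30 at Cfc1 and Prss40 and 0.28 in Mks1, with limma-trend adjusted p from 0.00824 to 0.0392 and no overlap between the groups. Of the 7, only the Ubald2 call held under any other scaling or tool, in 4 of 5. The Adcy9 call was lost without control replicate 3 or paused replicate 2, 3 or 4 (limma-trend adjusted p from 0.0533 to 0.119). The call at Cfc1 and Prss40 was lost without control replicate 2, 3 or 4 or paused replicate 3 or 4 (limma-trend adjusted p from 0.053 to 0.117). The Mks1 call held only without paused replicate 1, with limma-trend adjusted p from 0.0585 to 0.0935 on leaving out any other library.

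The largest fall was at a run of tRNA genes. The stretch at chr13:21924818-21934105, 10948 bp from the zinc finger gene Zfp184, holds 4 tRNA genes, n-TStga2 and n-TSaga6 for serine, n-TMcat10 for methionine and n-TQctg8 for glutamine. Its mean value per peak was 93.1, 93.8, 96.8 and 97.7 in the controls and 56.1, 62.0, 51.2 and 68.1 in the paused libraries. The groups were far apart, and the log2 change was -0.69 (SE 0.10, limma-trend adjusted p = 4.83e-06). Of its 6 peaks 5 were called lower, the highest number in any stretch, and 4 of these lay within 100 bp of a tRNA gene. The fifth, at 21931838, which is not at a tRNA gene, went from 27.1 ± 4.40 to 10.1 ± 4.96 (SD, n = 4 each). A second stretch with a tRNA gene, n-TFgaa6 for phenylalanine, lies 1971 bp from Osbp, an oxysterol-binding protein gene, at chr19:11996085-12005805. There the mean values per peak were 42.8, 41.6, 61.5 and 56.3 in the controls and 31.7, 32.6, 36.5 and 38.7 in the paused libraries, with a log2 change of -0.52 (SE 0.12, limma-trend adjusted p = 0.00183). At the tRNA gene itself the peak went from 126 ± 28.2 to 65.3 ± 5.27 (SD, n = 4 each).

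In all, 5 stretches held tRNA genes, and 12 dense peaks lay within 100 bp of one. Of the 12, 8 were called lower and 0 higher, with a median change of -0.68; the medians under the other scalings and tools ran from -0.86 to -0.78, with 8 to 10 called lower. Across the whole series 117 tested peaks lay at tRNA genes, of which 41 were lower (35.0%) and 1 higher. The other 21 peaks of the 5 stretches had a median change of -0.29, with 2 lower and 1 higher. The Abt1 stretch, at chr13:23423775-23438198, holds peaks at tRNA genes and peaks away from them. It has 9 peaks and 9 tRNA genes, 5 of them for tyrosine, and Abt1 itself is an activator of basal transcription. The peak at 23426459, at a tRNA gene, went from 59.8 ± 9.80 to 26.9 ± 5.98 and the one at 23428671 from 40.5 ± 8.81 to 20.2 ± 3.54 (SD, n = 4 each), both called lower. The peaks at 23431425 and 23437998, also at tRNA genes, were not called. They went from 162 ± 23.7 to 143 ± 9.38 and from 93.4 ± 9.34 to 73.4 ± 26.1 (SD, n = 4 each, limma-trend adjusted p = 0.366 and 0.104). The strongest peak, at 23432598 and not at a tRNA gene, was at 194 ± 20.1 in controls and 205 ± 19.2 in paused cells (SD, n = 4 each). As a whole the stretch missed the threshold on the deposited scale, with a change of -0.21 (SE 0.09, limma-trend adjusted p = 0.09). It was called lower under each of the other scalings and tools, with changes from -0.40 to -0.34 and adjusted p from 0.000869 to 0.00579. At Polg, the mitochondrial DNA polymerase gene, the peak at the arginine tRNA gene n-TRtcg5 was at 342, 389, 401 and 425 in controls and 395, 409, 465 and 449 in paused libraries, and its groups overlapped. Mouse tRNA genes have near-identical copies, and how reads that match several copies were placed is not given in the sources used here, so values at single tRNA genes are uncertain.

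The other 3 falls lay inside genes. Celsr1, a cadherin of planar cell polarity, had 44.7, 44.5, 44.5 and 42.4 in the controls and 32.3, 32.7, 38.8 and 33.0 in the paused libraries, a log2 change of -0.37 (SE 0.10, limma-trend adjusted p = 0.0102). Ccdc88c, which encodes a Dishevelled-binding protein, had 20.4, 18.4, 21.0 and 18.5 against 16.3, 11.0, 16.2 and 16.1, a change of -0.41 (SE 0.13, limma-trend adjusted p = 0.0289). In Mtss1, a gene of membrane and actin remodelling, the values were 30.5, 30.1, 35.0 and 37.5 against 26.1, 27.3, 27.9 and 24.2, a change of -0.33 (SE 0.11, limma-trend adjusted p = 0.0407). The groups did not overlap in any of the 3. Mtss1 moved through its strongest peak, which went from 126 ± 24.6 to 78.0 ± 12.1 (SD, n = 4 each), while 4 of its 6 peaks had changes above 0. The Ccdc88c call was lost without control replicate 1, control replicate 3 or paused replicate 2, with limma-trend adjusted p = 0.0769, 0.0797 and 0.159. The Mtss1 call was lost without control replicate 3 or 4 or paused replicate 1, 2 or 4, with limma-trend adjusted p = 0.102, 0.14, 0.0665, 0.0581 and 0.13.

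**Figure D4:**
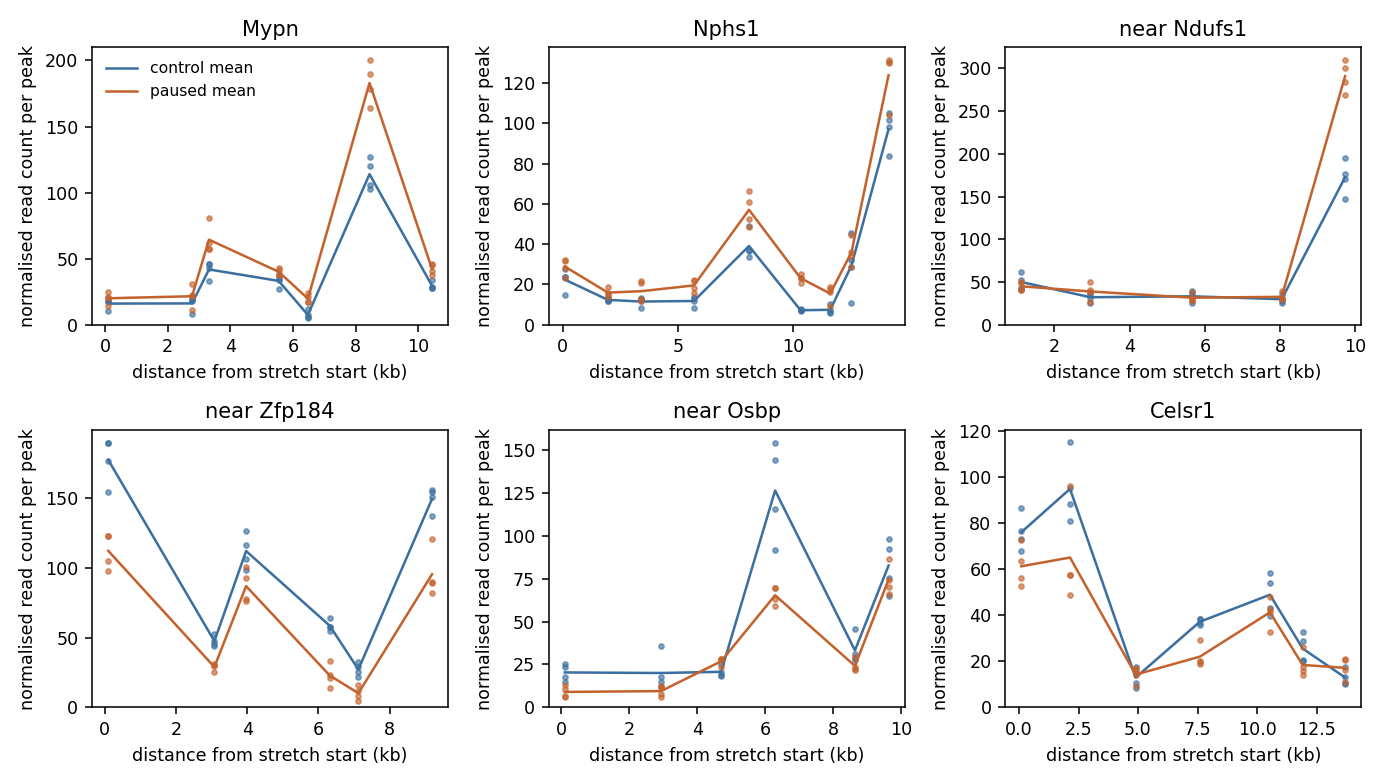
Normalised read counts per tested peak are plotted along 3 stretches called higher (Mypn, Nphs1, near Ndufs1) and 3 called lower (near Zfp184, near Osbp, Celsr1), against the distance from the start of the stretch in kb; points are libraries and lines join group means, control in blue and paused in orange. In Mypn and Nphs1 the paused line lies above the control line at every peak, near Ndufs1 only the last peak stands apart, and near Zfp184 the paused line lies below at every peak.

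Dense stretches were also looked up at the genes of fixed lists. The share of all protein-coding genes with a stretch was not worked out, so these counts do not say whether a list held few or many. A stretch counted for a gene where it overlapped the gene or lay within 50 kb of its end with no other protein-coding gene end nearer. Of 30 pluripotency regulators 3 had one (Tfcp2l1, Prdm14 and Tet1), of which 1 was called higher. Of 20 genes of LIF, FGF and Wnt signalling only Tcf7l1 had one, which was not called. There was none at 21 genes of Nodal and Smad signalling, 24 of PPAR and lipid metabolism, 25 of mTOR, insulin and growth control, or 20 germ layer regulators.

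Tfcp2l1, a transcription factor of naive pluripotency, had a stretch of 7 peaks over its start, which includes the window printed above. Mean values per peak were 50.0, 53.9, 58.8 and 64.4 in the controls and 64.1, 66.5, 77.8 and 68.0 in the paused libraries, so that the highest control lay just above the lowest paused library. The log2 change was 0.28 (SE 0.10, limma-trend adjusted p = 0.0406), and under the other scalings and tools it was between 0.09 and 0.17 with adjusted p up to 0.504, so the call did not hold there. It was also lost without control replicate 1, 2 or 3 or paused replicate 2, 3 or 4, with changes of 0.23, 0.26, 0.30, 0.30, 0.23 and 0.29 and limma-trend adjusted p from 0.0603 to 0.135. The peak at the start was at 210 ± 18.8 in controls and 263 ± 36.7 in paused cells (SD, n = 4 each; limma-trend adjusted p = 0.0568). Both called peaks lay downstream of it: one at 118630307 rose from 31.1 ± 6.07 to 48.9 ± 9.64 (SD, n = 4 each). The other, at 118633693, was at 22.5, 27.5, 22.0 and 27.9 in the controls and 39.2, 42.6, 38.8 and 46.9 in the paused libraries, with no overlap (change 0.73, limma-trend adjusted p = 0.0117).

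Prdm14 encodes a regulator of naive pluripotency and germ cells, and its stretch of 9 peaks lies 31248 bp away at chr1:13064473-13082180. Values were 41.0, 41.0, 33.5 and 42.8 in the controls and 39.0, 40.1, 34.0 and 36.4 in the paused libraries, overlapping, with a change of -0.08 (SE 0.10, limma-trend adjusted p = 0.635). Within it the peak at 13067081 fell from 35.1 ± 8.76 to 14.8 ± 3.66 (SD, n = 4 each; limma-trend adjusted p = 0.00125). Its strongest peak, at 13069744, was at 116 ± 16.3 and 111 ± 10.6 (SD, n = 4 each). The change of the whole stretch was larger under the other scalings and tools, from -0.27 to -0.20, and was called under none of them (adjusted p from 0.0656 to 0.271).

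Inside Tet1, which encodes an enzyme that oxidises methylated cytosine, 8 peaks had 29.6, 28.8, 31.5 and 25.0 in the controls and 27.3, 30.4, 31.4 and 35.1 in the paused libraries. The change of 0.11 (SE 0.11, limma-trend adjusted p = 0.517) turned below 0 under the other scalings. Tcf7l1, a repressor in Wnt signalling, had 48.3, 41.6, 52.5 and 45.3 against 47.5, 43.1, 45.5 and 49.2, a change of -0.02 (SE 0.10, limma-trend adjusted p = 0.939), and from -0.21 to -0.14 under the other scalings and tools, where it was not called either. No peak of either was called.

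**Figure D5:**
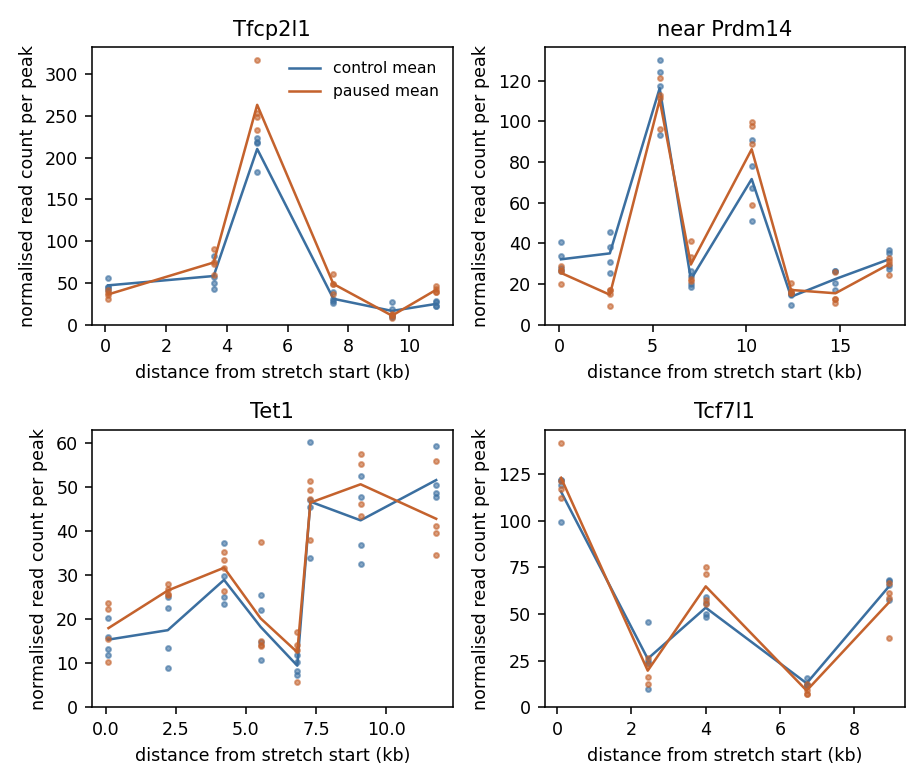
Normalised read counts per tested peak are plotted along the stretches at Tfcp2l1, near Prdm14, in Tet1 and in Tcf7l1, against the distance from the start of the stretch in kb, with points for libraries and lines joining group means (control blue, paused orange). At Tfcp2l1 the peak at the start, at about 5 kb, has the highest value; near Prdm14 the second peak is lower in paused cells; in Tet1 and Tcf7l1 the libraries overlap.

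The strongest stretch by mean value per peak covered the histone genes H3c8, H2bc9 and H3c7 on chromosome 13, with 135, 163, 173 and 183 in the controls and 155, 167, 200 and 181 in the paused libraries. Its groups overlapped, and the change of 0.11 (SE 0.09, limma-trend adjusted p = 0.462) was below 0 under the other scalings. The peaks over the 2 printed histone windows behaved alike, at 401 ± 48.2 and 437 ± 57.6 for H3c8 and 269 ± 42.4 and 270.2 ± 40.3 for H2bc9 (control and paused, SD, n = 4 each). Histone genes also have near-identical copies. The stretch at Ubald2, which encodes a small protein with a UBA-like domain, was the 1 of the 5 strongest that was called: 94.5, 100.3, 92.8 and 99.9 in the controls against 109, 130.4, 133 and 137 in the paused libraries, a change of 0.39 (SE 0.09, limma-trend adjusted p = 0.00237). The peak over its printed window was at 335 ± 27.8 and 406 ± 56.1 (SD, n = 4 each; limma-trend adjusted p = 0.0875). The stretch in the Pvt1 locus, 97352 bp from Myc, had 96.2, 96.7, 119 and 112 against 111, 119, 130 and 129, a change of 0.21 (limma-trend adjusted p = 0.11). Sash1, a signalling scaffold gene, and Denn2b, a regulator of Rab GTPases, had changes of 0.20 and 0.19 (limma-trend adjusted p = 0.104 and 0.153).

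Of the 11 stretches with 9 or more peaks, 3 were called higher (Nphs1, Nsmce2 and the one near Nsun7) and 0 lower, with limma-trend. Of all chains, 12.9% were called higher and 2.81% lower, and whether the 11 differ from these shares was not tested. The Nsmce2 and Nsun7 calls did not hold under any other scaling. The one with 12 peaks, 30079 bp from Nsun7, a gene of the RNA methyltransferase family, was at 37.6, 39.2, 42.8 and 38.7 in the controls and 43.0, 52.2, 45.1 and 49.4 in the paused libraries (change 0.26, SE 0.09, limma-trend adjusted p = 0.0484), and its groups did not overlap. Under the other scalings and tools the change was 0.07 to 0.14, with adjusted p from 0.333 to 0.66, and with no filter on low values the limma-trend adjusted p was 0.0515. This call was also lost on leaving out any 1 of the 4 controls, or paused replicate 2 or 4, with limma-trend adjusted p from 0.0502 to 0.165. The Nsmce2 call was lost without control replicate 1 or 3 or paused replicate 2 or 4, with limma-trend adjusted p from 0.053 to 0.126. Those with 11 peaks in Rbpms, an RNA-binding protein gene, and 10 peaks in Fam169a had changes of 0.14 and 0.01 (limma-trend adjusted p = 0.312 and 0.934). A stretch of 9 peaks over Gng7, a G protein subunit gene, and Diras1, a Ras-family gene, had 0.11 (limma-trend adjusted p = 0.437).

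Neighbouring peaks of a stretch were seldom called together. At least 1 peak was called in 96 of the 166 stretches, in 8 of them peaks were called in both directions, and in 1, near Zfp184, most peaks were called the same way. Of dense peaks, 7.42% were called higher and 5.35% lower, and of all peaks tested 13.9% were called. At such rates, calls in most peaks of a stretch are rare even without any tie between neighbours. Whether the counts differ from those of independent calls was not tested. All tested peaks had a change above 0 in 5 stretches and below 0 in 4. The SD of log2 changes among the peaks of a stretch had a median of 0.37, against 0.43 for the SD over all dense peaks. The median SE of a single dense peak was 0.227. The SD of whole stretches was 0.20, but those are changes of summed values, which are less noisy, so it is not a like measure. Over 899 pairs of adjacent tested peaks, Pearson's r between their changes was 0.12, and it was 0.39 over the 51 pairs within 1 kb; in chains of 2 to 5 the values were 0.14 and 0.28. These pairs share libraries, scaling factors and, for inner peaks, members. Bag5, a co-chaperone gene that shares its stretch with Coa8, shows opposite movement. The peak over its printed start window went from 166 ± 33.8 to 244 ± 23.3 (SD, n = 4 each; change 0.57, SE 0.13, limma-trend adjusted p = 0.00169). The 6 peaks of that stretch ranged from -1.28 to 0.79, with 2 called higher and 2 lower, and the stretch as a whole was not called (change 0.23, limma-trend adjusted p = 0.0869).

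The strongest peak held a larger share of its stretch in paused libraries. It had, averaged over the 166 stretches, 36.5%, 36.8%, 37.0% and 38.4% of the summed value in control replicates 1 to 4 and 39.0%, 38.5%, 39.5% and 39.4% in paused replicates 1 to 4. The groups did not overlap, with means of 37.2% ± 0.842 and 39.1% ± 0.452 (SD, n = 4 each), and the share was higher in paused cells in 127 of 166 stretches. The share was higher in smaller chains too, by 2.47 to 3.35 percentage points in chains of 2 to 5 peaks against 1.91 here. In calls, 29 of the 166 strongest peaks were higher (17.5%, against 11.0% of all peaks and 18.2% of single peaks weighted to the same strengths) and 5 lower (3.01%, against 2.91% and 1.17%), with a median change of 0.18, while the other 899 tested peaks had 50 higher, 52 lower and a median of -0.04. The median of the strongest peaks was 0.08 after TMM and -0.01 after the loess correction, where the other peaks stood at -0.14 and -0.09. By position, the median change was 0.05 in the outermost peaks and -0.01 in inner ones.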

How the data were processed

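ATAC-seq libraries (4 control, 4 paused) were grouped by their titles. Per library, the authors deposited a signal for each peak: whole reads per peak divided by 1 factor per library, worked out from the values, of which 100% were whole multiples of 1 step within 0.0055. The log2 values (mean concentration and fold) and the p-values and FDR of the authors' own comparison were deposited by the authors, per the file headers. The submitters' processing notes name FastQC, Trim Galore, Bowtie2 2.4.1, MACS3 3.0.3, DiffBind 3.16.0 and mm10, with no role; the handling of multi-mapping reads and of the Tn5 offset is not given in the sources used here. All peaks are 201 bp wide.

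Peaks and chains with a mean value of at least 10 were fitted with limma-trend (limma 3.58.1, R 4.3.3) on log2(value + 1), with Benjamini-Hochberg adjustment over all peaks or chains. This scale understates the change of weak peaks. edgeR 4.0.16 and DESeq2 1.42.0 on the recovered reads, other scalings (TMM, total, loess with span 0.3), filters, chain rules, a replicate block and leaving out each library were alternatives. In a test on simulated data with chains changed by log2 1 or 1.5, limma-trend called 67.0% and 95.9% of them, with 0 unchanged chains called among 100635 tested; these sizes are above the change of any dense stretch.

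A read is worth 0.346 in control replicate 1 and 1.69 in control replicate 3. No library was a copy of another: counts differed beyond sampling noise in every pair of a group (chi-square over its degrees of freedom at least 1.09). The stretches, lists and tests were chosen with earlier results of these data known. Named stretches were the 5 largest rises and falls among those called without overlap of groups, the 5 with most peaks (ties by mean value per peak), the 5 with the highest mean value per peak and those at listed genes. Genes and promoter windows were taken from RefSeq tables of GRCm38.p6; peak sequences were not analysed here.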

Additional observations from a re-analysis of the deposited data

Results flagged for a closer look

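Among 52 groups of 4 values examined, 4 had 1 library far from the other 3; chance alone gives about 1 in 20. At Ccdc88c, paused replicate 2 had a mean value per peak of 11.0, below the other paused libraries at 16.1 to 16.3. At Fam169a, paused replicate 1 stood at 53.5, above the others at 44.6 to 45.3. At Celsr1, control replicate 4 was at 42.4, with the other controls at 44.5 to 44.7, and paused replicate 3 was at 38.8, with the others at 32.3 to 33.0.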

How the results depend on the processing

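Dense peaks called higher numbered 79, and 49 after TMM, 32 after scaling to total, 35 after loess, 23 with DESeq2, 7 with centres within 2 kb, 1147 within 5 kb, and 196 and 10 in chains of at least 5 and 8. Dense peaks tested numbered 1065, and 58 and 13740 at 2 and 5 kb, and 2821 and 231 in chains of at least 5 and 8. Of all peaks tested, 11.0% were higher, and 6.00% after TMM, 4.50% after scaling to total, 5.10% after loess and 3.06% with DESeq2. At a mean of at least 50, 64 dense peaks were higher, where 22.4% of all peaks tested were. Dense peaks called lower numbered 57, and 12 at a mean of at least 50, 95 after scaling to total, 107 with edgeR, 28 with DESeq2, 2 and 581 at 2 and 5 kb, and 133 and 13 at 5 and 8 peaks. Of all peaks tested, 2.91% were lower, and 1.66% at a mean of at least 50, where 299 dense peaks were tested. The share of all peaks was 5.38% after scaling to total, 5.54% with edgeR and 1.49% with DESeq2. Stretches called higher numbered 21, and 6 after TMM, 4 after scaling to total, 3 after loess, 6 with edgeR and 4 with DESeq2. The share of all chains called higher was 12.9%, and 5.87%, 5.00%, 5.75%, 6.83% and 3.296% under these scalings and tools in turn. At 2 and 5 kb, 2 of 9 and 337 of 1870 stretches were higher. In chains of at least 5 and 8 peaks, 52 of 535 and 3 of 28 stretches were higher. Stretches called lower numbered 5, and 17, 23, 33, 21 and 12 under the same scalings and tools, 0 and 34 at 2 and 5 kb, 21 and 0 at 5 and 8 peaks, and 3 without stretches that hold tRNA genes. Of all chains, 2.81% were lower, and 4.67%, 5.62%, 4.35%, 6.02% and 1.80% under these scalings and tools in turn. The shares of all chains at 2 and 5 kb are not given here. Leaving out 1 library gave 57 to 78 peaks higher, 37 to 57 lower, 10 to 24 stretches higher and 3 to 6 lower. Of all peaks tested, 7.02% to 9.99% were then higher and 1.81% to 3.05% lower. Of all chains, 8.32% to 11.9% were higher and 1.79% to 2.95% lower. The chain rule changes how many peaks enter, and a stricter filter leaves fewer; for the scalings and tools the cause was not tested.

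The median change of dense peaks, 0.01, was 0.15 at a mean of at least 50, -0.0881 after TMM, -0.143 after scaling to total, -0.0650 after loess, -0.109 with edgeR and -0.0834 with DESeq2. The difference of dense from single peaks of like strength, -0.10, was -0.0602 at a mean of at least 50, -0.0283 and -0.133 at 2 and 5 kb and -0.0754 against peaks of chains of 1 to 5, and it ran from -0.112 to -0.0905 with 1 library left out.

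Under TMM, total, loess, edgeR and DESeq2 in turn, the change turned below 0 at Tet1 (-0.0139, -0.0461, -0.0785, -0.0237, -0.0151), Gng7/Diras1 (-0.0160, -0.0483, -0.0838, -0.0270, -0.0197), the histone stretch H3c8/H2bc9/H3c7 (-0.0183, -0.0507, -0.0862, -0.0189, -0.0146) and Fam169a (-0.110, -0.142, -0.177, -0.104, -0.0973). Rbpms turned to -0.0165 after scaling to total and -0.0515 after loess, and Denn2b to -0.00414 after loess. With 1 library left out, Fam169a ran from -0.0480 to 0.0391 and Tcf7l1 from -0.0713 to 0.0401. None of these was called. Over the named stretches, 329 values kept their direction and side of the threshold, 41 lost a call, 9 gained one and 29 changed sign.

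With the replicate number as a block, 36 stretches were higher (21.7%, against 15.9% of all chains) and 8 lower (4.82%, against 3.56%). Under the same block 100 dense peaks were higher and 73 lower of 1065 tested, where 13.6% of all peaks were higher and 3.63% lower. Same-numbered libraries correlated at 0.079, 0.0358, 0.133 and 0.0395, and other pairs at -0.105 to 0.0703. The libraries of replicates 1, 3 and 4 each correlated best with their own number, and those of replicate 2 did not. The numbers were not used to pair samples. Depth limits the weak peaks: 3 reads are worth 5.08 in control replicate 3.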

Other observations

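Some dense stretches lay close to each other. On chromosome 7, 2 stretches at the potassium channel gene Kcnn4 were 7037 bp apart, with changes of -0.01 and -0.04, and 2 at the zinc finger gene Zfp568 were 24853 bp apart, with changes of 0.39 (limma-trend adjusted p = 0.00312) and 0.07 (limma-trend adjusted p = 0.741). On chromosome 13 the stretch near the histone gene H4bc24, which holds 3 tRNA genes, lay 67393 bp from the one near Zfp184, with changes of -0.25 (limma-trend adjusted p = 0.132) and -0.69. The Abt1 stretch lay 97019 bp from the histone stretch at H3c8, with changes of -0.21 and 0.11. The Nphs1 stretch lay 123087 bp from the one at Cox6b1, a gene of mitochondrial complex IV, with changes of 0.50 and 0.19. The differences between such neighbours were not tested.

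In the authors' deposited table, 77 dense peaks (6.92%) were higher and 38 (3.42%) lower at an FDR under 0.05, against 9.19% and 1.80% of all peaks.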
